A study of Homo sapiens with 4 samples.

Results

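The genes of cholesterol and fatty acid synthesis were followed in A375 cells, a human melanoma line that carries an activating BRAF mutation. They are a fixed list of 32 genes, matched by symbol among the 62649 genes of the count files: 19 of the sterol arm (18 enzymes and the sterol carrier STARD4), 4 regulators and 9 of the fatty acid arm. All 32 passed the filter on low counts that left 24961 tested genes. RNA came from 2 libraries of vemurafenib-resistant A375 cells and from 2 libraries of parental A375 cells, the control. Resistance to vemurafenib, which blocks the mutant BRAF kinase, was raised by doubling the drug each week from 0.1 µM to 6.4 µM. The labels do not say how many selections were made, whether vemurafenib was present at harvest or whether replicates were separate cultures, so p-values cover only how far these libraries spread, in part perhaps technically. Sorafenib and pioglitazone also stand in the shared protocol text, but no library's title names either of them.

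Cholesterol is made from acetyl-CoA through mevalonate, farnesyl diphosphate, squalene and lanosterol, and fatty acids are made from the same acetyl-CoA through malonyl-CoA. Both routes are switched on by the transcription factors SREBP1 and SREBP2, which wait in the endoplasmic reticulum bound to their escort SCAP. When sterols are scarce, SCAP carries them to the Golgi, where they are cut and released to the nucleus; when sterols are plentiful, INSIG proteins hold SCAP back. SREBP2 mainly drives the sterol genes and SREBP1 mainly the fatty acid genes.

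Counts assigned to genes ranged from 68022689 to 87178097 per library. Every count of control replicate 1 was even, as if its alignments had been entered 2 times. If so, its total of 72290468 counts overstates its depth. It also had the fewest genes with a count above 0, at 32101. Control replicate 2 had 39454 such genes, and resistant replicates 1 and 2 had 37126 and 36923. Halving the counts of control replicate 1 left every member on the same side of the threshold. TMM scaling absorbs a uniform halving, so this cannot show whether that library's values are sound. SOX10 and ERBB3, genes of the pigment cell lineage to which melanoma belongs, were abundant in each library, whereas the pigment genes TYR and DCT were at or below 0.279 CPM (counts per 1000000 of the library's total, after TMM scaling). Of the other lineage markers, MITF had 12.3 to 42.2 CPM, S100B 11.4 to 24.3, PMEL 1.08 to 2.07 and MLANA 1.12 to 2.34 CPM. The summed level of 5 leukocyte markers was 0.838 to 2.14 CPM, that of 5 fibroblast markers 10.4 to 14.9 CPM and that of 5 keratinocyte markers 49.2 to 89.5 CPM, nearly all of it from KRT10.

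None of the 32 genes passed the threshold between resistant and control cells, in either direction (edgeR quasi-likelihood test, Benjamini-Hochberg adjusted over all 24961 tested genes, adjusted p under 0.05), where 0.513% of tested genes were called lower and 0.577% higher. At an unadjusted edgeR p under 0.05, 12 of the 32 were lower in resistant cells and 1 was higher, against a background of 7.32% and 6.14% of all tested genes (9.4% and 6.36% of genes averaging at least 5 CPM). DESeq2 called 3 lower, SREBF2, ACAT2 and STARD4, against a background of 2.69%, and 0 higher, against 2.51%. Fold changes were negative in 28 of 32 (49.5% of all tested genes), and their median on the log2 scale was -0.48, where the median over all tested genes was 0.006. In 19 of the 32 both resistant libraries lay below both controls (22.2% of all tested genes), in 1 both lay above (22.4%), and in 12 the groups overlapped. In these bulk libraries, fewer cells that make a transcript and less transcript per cell cannot be told apart.

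**Figure D1:**
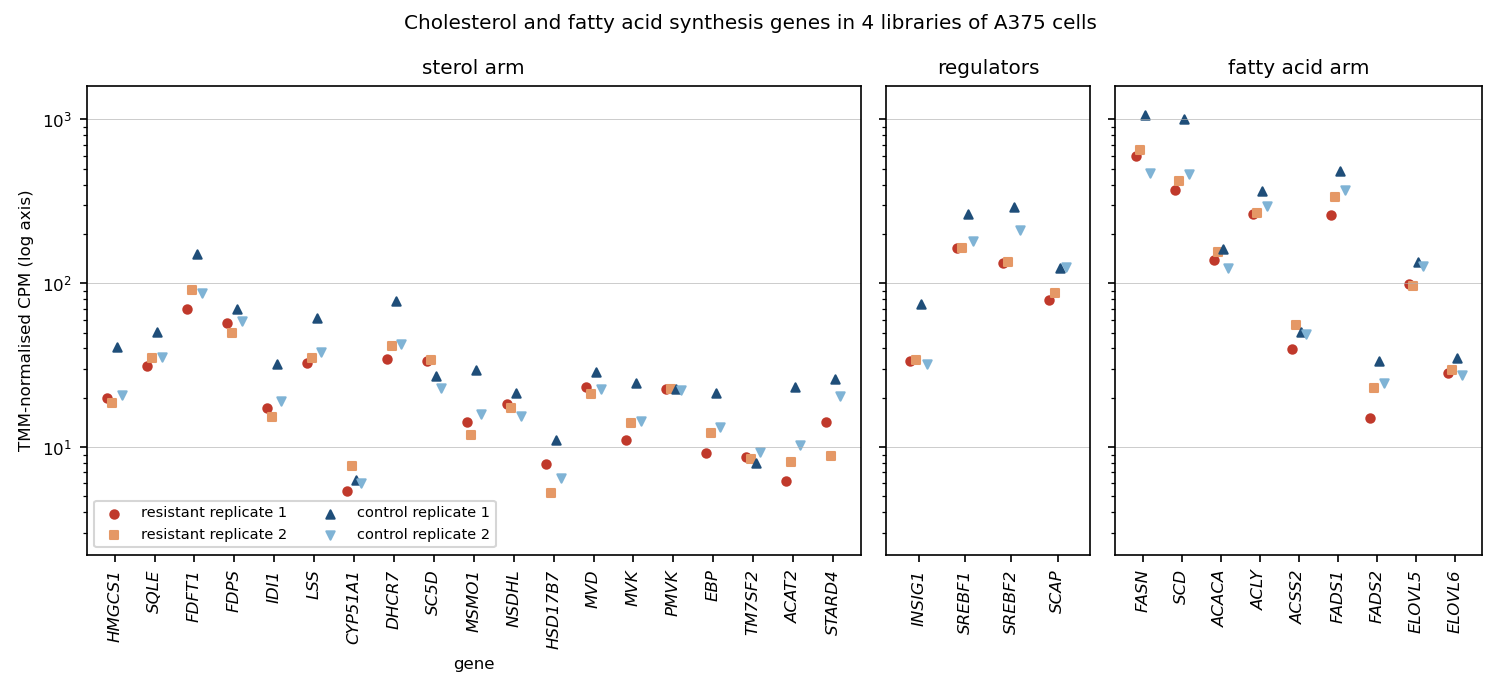
TMM-normalised CPM on a log axis for the 19 sterol arm genes, the 4 regulators and the 9 fatty acid genes, with 1 point per library. Control replicate 1 lies above control replicate 2 for 30 of 32 genes, and both resistant libraries lie below both controls for 19.

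The controls did not agree on these genes. Control replicate 1 was above control replicate 2 in 30 of 32, against 48.8% of all tested genes and 54.9% of those averaging at least 5 CPM, and the median log2 ratio between these controls was 0.47. Between the resistant libraries the gaps went both ways, with a median log2 ratio of -0.04 of resistant replicate 1 over resistant replicate 2. Single genes ranged from -0.59 for FADS2 to 0.70 for STARD4, so this median does not measure how close these libraries were. The resistant mean was below control replicate 1 in 29 of 32 genes with a median log2 ratio of -0.72, and below control replicate 2 in 23 of 32 with a median of -0.14. Over the 24336 tested genes with a count in every library, the same medians were 0.02 and 0.01. With control replicate 1 left out, no member was called by edgeR (1.49% of all tested genes were called lower and 1.5% higher), 3 had an unadjusted p under 0.05 with a negative sign and 23 had a negative fold change. With control replicate 2 left out, which sets both resistant libraries against control replicate 1 alone, 15 members were called lower and 0 higher, where 3.84% of all tested genes were called lower and 4.31% higher.

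**Figure D2:**
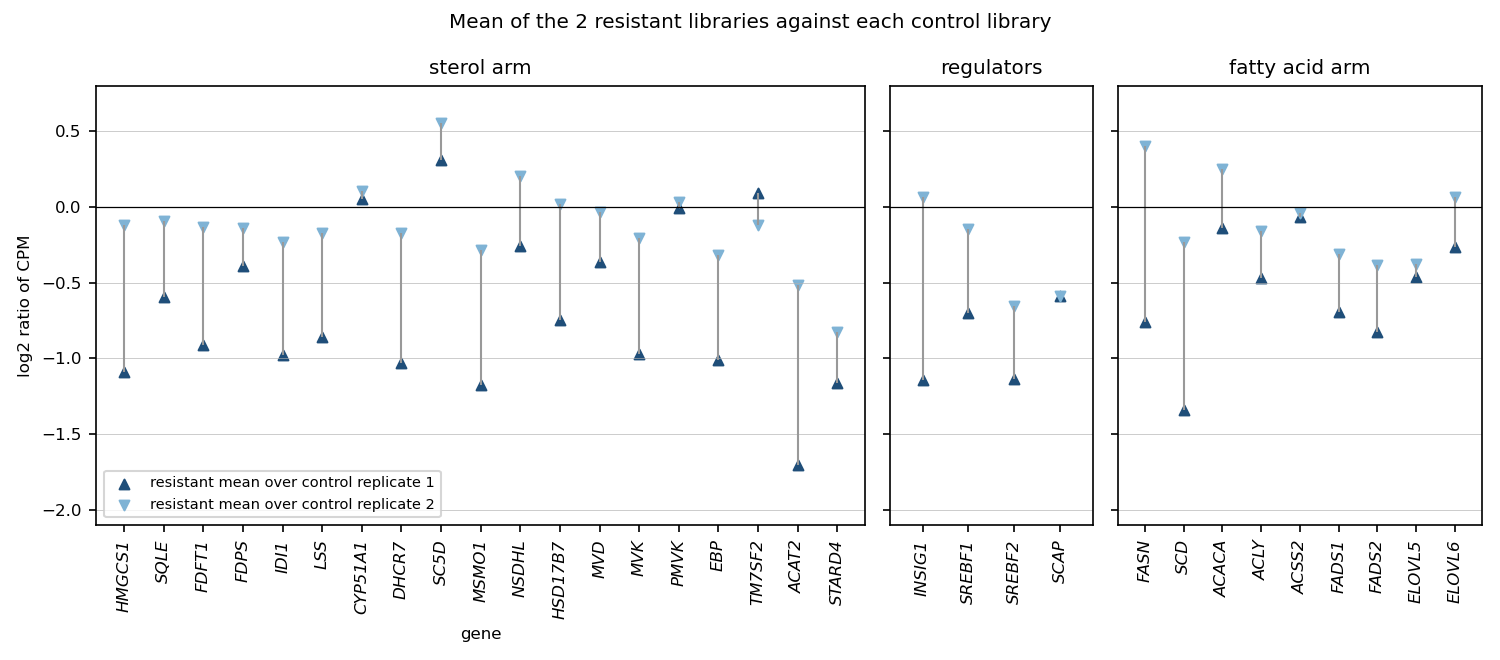
Log2 ratio of the mean CPM of the 2 resistant libraries over each control library, per gene, with a line joining the ratios of a gene. Ratios over control replicate 1 reach -1.70 for ACAT2, while those over control replicate 2 lie nearer 0 for most genes, with SCAP, STARD4, SREBF2 and ELOVL5 among those below 0 against both.

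The 4 regulators all had negative fold changes (log2 median -0.62, at -0.37 without control replicate 1 and -0.91 without control replicate 2). SREBF2 (ENSG00000198911.12, chromosome 22), which encodes SREBP2, had 133 and 134 CPM in resistant replicates 1 and 2, against 293 and 211 CPM in control replicates 1 and 2. Both resistant libraries lay well below both controls, which themselves differed 1.39-fold. The log2 fold change was -0.92 ± 0.20 (SE, n = 2 per group, edgeR adjusted p = 0.089), the smallest adjusted p among the members, and DESeq2 called the gene lower (adjusted p = 0.00465). Against the lower control alone its log2 fold change was -0.65 (edgeR adjusted p = 0.131).

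SREBF1, the gene of SREBP1, had 164 and 163 CPM in the resistant libraries and 265 and 182 CPM in the controls. The resistant values sat just under control replicate 2, and the log2 fold change of -0.45 ± 0.21 missed the threshold (edgeR adjusted p = 0.424). SCAP, the escort, had 78.9 and 87.3 CPM in resistant cells, against 125 and 125 CPM in controls. It was among the members on which both controls stood at the same level, and its log2 fold change was -0.59 ± 0.16 (edgeR adjusted p = 0.15), between -0.66 and -0.51 with 1 library left out.

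INSIG1 encodes the retention protein and is itself a well-known SREBP target. Its level was 33.4 and 34.0 CPM in resistant cells, against 74.5 and 32.2 CPM in the controls. Both resistant libraries therefore lay between the controls, and the log2 fold change of -0.66 ± 0.35 (edgeR adjusted p = 0.477) became 0.07 without control replicate 1 and -1.14 without control replicate 2. INSIG1 had the widest gap between the controls of the 32 genes, a log2 ratio of 1.21.

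The promoters of SREBF2 and INSIG1 are shown because these genes both act in the sterol switch and respond to it. The sequences are RefSeq's (GRCh38.p14), the 250 bases before the start site, 5′ to 3′ on the gene's strand, and capitals mark a sterol regulatory element core (TCACNCCAC), an NF-Y box (CCAAT) or an E-box (CACGTG) found on either strand. No motif overlaps another in them.
SREBF2 at chr22:41832855-41833104, plus strand: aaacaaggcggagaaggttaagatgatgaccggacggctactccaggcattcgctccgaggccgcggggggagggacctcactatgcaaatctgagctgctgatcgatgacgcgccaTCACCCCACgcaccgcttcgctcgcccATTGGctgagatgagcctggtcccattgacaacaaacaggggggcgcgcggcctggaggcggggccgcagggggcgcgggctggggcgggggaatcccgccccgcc
INSIG1 at chr7:155297628-155297877, plus strand: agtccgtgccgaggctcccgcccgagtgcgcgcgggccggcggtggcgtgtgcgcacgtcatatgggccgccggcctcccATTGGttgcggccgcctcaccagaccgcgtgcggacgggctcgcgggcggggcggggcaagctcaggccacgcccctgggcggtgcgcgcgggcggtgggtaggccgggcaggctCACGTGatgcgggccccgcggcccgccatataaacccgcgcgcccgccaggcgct
The SREBF2 promoter holds the core TCACCCCAC 133 bases before the start and an inverted NF-Y box at 106 bases. The INSIG1 promoter holds an inverted NF-Y box at 170 bases and an E-box at 55 bases, and no match to the core letters lies in this window.

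The sterol arm had a median log2 fold change of -0.55, with 16 of 19 genes negative. Without control replicate 1 the median was -0.13, and without control replicate 2 it was -0.85. At the head of the route, ACAT2 (ENSG00000120437.9, chromosome 6), the cytosolic thiolase that joins acetyl-CoA units, had 6.22 and 8.13 CPM in resistant cells and 23.4 and 10.3 CPM in controls. Both resistant libraries were below both controls, but control replicate 1 held 2.28-fold more than control replicate 2. Its log2 fold change, -1.23 ± 0.38, was the most negative of the 32 (edgeR adjusted p = 0.197, DESeq2 adjusted p = 0.0155). Exons of TCP1 and other genes on the opposite strand cover 22.2% of ACAT2's exonic bases, and counting ignored strand and dropped reads shared by genes.

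HMGCS1, the next enzyme, makes HMG-CoA. It had 19.9 and 18.5 CPM in resistant cells, against 40.8 and 20.9 CPM in controls, so control replicate 2 stood close to the resistant libraries and control replicate 1 apart. The log2 fold change was -0.68 ± 0.30 (edgeR adjusted p = 0.385), but -0.12 without control replicate 1. An antisense gene with no symbol in the annotation overlaps 37.7% of its exonic bases.

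The mevalonate enzymes showed different patterns. MVK, mevalonate kinase, had 11.0 and 13.9 CPM in resistant libraries and 24.5 and 14.4 CPM in controls (log2 -0.64 ± 0.28, edgeR adjusted p = 0.388). PMVK, which adds the next phosphate, had 22.5 and 22.7 CPM in resistant libraries and 22.7 and 22.1 CPM in controls, the tightest set of values among the members, with a log2 fold change of 0.01 ± 0.18. MVD, the decarboxylase that makes isopentenyl diphosphate, had 23.2 and 21.2 CPM in resistant libraries and 28.6 and 22.7 CPM in controls, and the groups overlapped (log2 -0.21 ± 0.20, edgeR adjusted p = 0.727).

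IDI1, which interconverts the isoprene units, had 17.4 and 15.3 CPM in resistant cells and 32.2 and 19.2 CPM in controls (log2 -0.65 ± 0.27, edgeR adjusted p = 0.341). FDPS, farnesyl diphosphate synthase, had 57.3 and 49.7 CPM in resistant cells and 70.1 and 58.9 CPM in controls (log2 -0.27 ± 0.18, edgeR adjusted p = 0.586). For both, the resistant libraries were below both controls, with control replicate 2 the nearer control. Antisense genes overlap 18.6% of the exonic bases of FDPS and 15.0% of those of IDI1.

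FDFT1, squalene synthase, commits the route to sterols. It had 69.7 and 90.5 CPM in resistant libraries, against 150.4 and 87.7 CPM in controls, and resistant replicate 2 was above control replicate 2. SQLE, squalene epoxidase, had 31.2 and 35.1 CPM in resistant libraries and 50.1 and 35.4 CPM in controls. LSS closes the ring to lanosterol and had 32.6 and 35.0 CPM in resistant libraries and 61.3 and 38.0 CPM in controls. The log2 fold changes were -0.57 ± 0.27 for FDFT1, -0.37 ± 0.21 for SQLE and -0.55 ± 0.24 for LSS, none of which passed (edgeR adjusted p of 0.423, 0.528 and 0.375).

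The later enzymes trim lanosterol to cholesterol. Their values showed more than 1 pattern. MSMO1, which removes methyl groups, had 14.2 and 11.9 CPM in resistant cells and 29.3 and 15.9 CPM in controls (log2 -0.80 ± 0.30, edgeR adjusted p = 0.294). EBP, a sterol isomerase, had 9.24 and 12.1 CPM in resistant cells and 21.5 and 13.3 CPM in controls (log2 -0.70 ± 0.28, edgeR adjusted p = 0.327). DHCR7, the reductase of a last step, had 34.5 and 41.7 CPM in resistant cells and 77.9 and 42.8 CPM in controls (log2 -0.67 ± 0.28, edgeR adjusted p = 0.359). In these 3 genes both resistant libraries were below both controls, and control replicate 2 lay nearer to them than to control replicate 1. Another gene on the same strand covers 36.4% of EBP's exonic bases, and reads shared with it were dropped.

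In another set the groups overlapped. NSDHL, a dehydrogenase of the demethylation steps, had 18.4 and 17.2 CPM in resistant cells, between the control values of 21.3 and 15.4 CPM. HSD17B7, its partner ketoreductase, had 7.88 and 5.25 CPM in resistant cells and 11.0 and 6.48 CPM in controls. TM7SF2, a sterol reductase, had 8.67 and 8.42 CPM in resistant cells and 8.02 and 9.30 CPM in controls. Their log2 fold changes were -0.04 ± 0.22, -0.41 ± 0.33 and -0.02 ± 0.22. CYP51A1, lanosterol demethylase, had 5.37 and 7.64 CPM in resistant cells and 6.29 and 6.04 CPM in controls (log2 0.08 ± 0.27). Other annotated genes on its own strand cover 68.2% of its exonic bases, and reads shared by genes were dropped, so its level understates the transcript.

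SC5D, a sterol desaturase near the end of the route, went the other way. It had 33.4 and 33.9 CPM in resistant libraries, against 27.1 and 22.9 CPM in controls, and was the 1 member with both resistant libraries above both controls. The log2 fold change was 0.43 ± 0.18 (unadjusted p = 0.0452, edgeR adjusted p = 0.354), and it stayed between 0.31 and 0.56 with 1 library left out. DESeq2 did not call it (adjusted p = 0.394).

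STARD4 is no enzyme but a carrier that moves cholesterol between membranes. It had 14.3 and 8.83 CPM in resistant cells, against 26.0 and 20.5 CPM in controls. Both resistant libraries were below both controls although they differed from each other by a log2 ratio of 0.70. The log2 fold change was -1.01 ± 0.27 (edgeR adjusted p = 0.144, DESeq2 adjusted p = 0.0137). It was -0.83 without control replicate 1 and -0.70 without resistant replicate 2, so it kept most of its size against the lower control alone.

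The promoters of MSMO1, MVK and SC5D are shown as sterol arm genes with negative and with positive fold changes, printed as above (RefSeq, GRCh38.p14, 250 bases before the start, capitals marking the same 3 motifs).
MSMO1 at chr4:165327419-165327668, plus strand: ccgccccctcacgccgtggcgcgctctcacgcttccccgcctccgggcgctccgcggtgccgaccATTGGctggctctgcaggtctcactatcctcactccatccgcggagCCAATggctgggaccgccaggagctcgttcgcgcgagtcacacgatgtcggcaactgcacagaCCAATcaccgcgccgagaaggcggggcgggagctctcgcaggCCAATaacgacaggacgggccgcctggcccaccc
MVK at chr12:109573544-109573793, plus strand: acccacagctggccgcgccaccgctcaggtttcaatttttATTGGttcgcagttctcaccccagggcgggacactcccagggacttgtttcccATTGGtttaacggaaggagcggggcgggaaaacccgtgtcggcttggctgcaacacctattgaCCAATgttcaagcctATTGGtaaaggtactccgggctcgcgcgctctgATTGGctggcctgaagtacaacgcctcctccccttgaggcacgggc
SC5D at chr11:121292521-121292770, plus strand: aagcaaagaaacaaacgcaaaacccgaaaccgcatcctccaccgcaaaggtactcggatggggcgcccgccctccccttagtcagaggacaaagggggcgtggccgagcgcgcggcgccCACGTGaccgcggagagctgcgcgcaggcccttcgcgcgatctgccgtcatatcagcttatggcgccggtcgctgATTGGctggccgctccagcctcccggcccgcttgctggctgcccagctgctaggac
MSMO1 carries 4 NF-Y boxes, MVK 5 and SC5D 1 together with an E-box. RefSeq promoter windows of 300 bases (250 before to 50 after a start) were at hand for 28 of the 32 genes. At least 1 CCAAT box on either strand was found in 14 of 16 sterol arm genes, 2 of 4 regulators and 6 of 8 fatty acid genes, against 39.7% of all genes with a promoter and 43.8% of tested genes averaging at least 5 CPM. The sterol regulatory element core was found in SREBF2 alone among the 28 (1.39% of all genes, 1.48% of tested genes averaging at least 5 CPM). CACGTG was found in 5 of 28, or 17.9% (8.77% of all genes, 12.8% of tested genes averaging at least 5 CPM). A match is a match of letters only, and the lack of a match to these letters in the window does not show that a gene lacks such an element. SC5D and NSDHL, whose fold changes were positive or near 0, hold NF-Y boxes too.

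The fatty acid arm had a median log2 fold change of -0.32, with 8 of 9 genes negative. The median was -0.16 without control replicate 1 and -0.46 without control replicate 2. ACLY, which splits citrate to give cytosolic acetyl-CoA, had 265 and 268 CPM in resistant cells and 368 and 297 CPM in controls (log2 -0.32 ± 0.18, edgeR adjusted p = 0.516). ACSS2, which makes acetyl-CoA from acetate, had 40.0 and 56.0 CPM in resistant cells and 50.1 and 49.2 CPM in controls (log2 -0.05 ± 0.20). ACACA, the carboxylase that makes malonyl-CoA, had 139 and 154 CPM in resistant cells, between the controls at 161 and 123 CPM (log2 0.05 ± 0.19). The suppliers of carbon therefore included 1 gene below both controls, ACLY, and 2 whose groups overlapped.

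FASN, the fatty acid synthase, showed the largest gap between controls in this arm. It had 598 and 651 CPM in resistant cells, against 1059 and 473 CPM in controls, so both resistant libraries were above control replicate 2 and below control replicate 1. The log2 fold change of -0.29 ± 0.34 (edgeR adjusted p = 0.79) became 0.40 without control replicate 1 and -0.76 without control replicate 2. SCD, which puts a double bond into saturated fatty acids, had 373 and 421 CPM in resistant cells and 1006 and 465 CPM in controls. Here both resistant libraries were below both controls (log2 -0.89 ± 0.33, edgeR adjusted p = 0.29), but the log2 fold change was -0.23 without control replicate 1.

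The desaturases and the elongase of polyunsaturated fatty acids were each below both controls. FADS1, the desaturase that makes arachidonic acid, had 260.4 and 335 CPM in resistant cells and 482 and 369 CPM in controls (log2 -0.51 ± 0.21, edgeR adjusted p = 0.347). FADS2, the desaturase of the entry step, had 15.1 and 22.8 CPM in resistant cells and 33.6 and 24.7 CPM in controls (log2 -0.62 ± 0.26, edgeR adjusted p = 0.349). ELOVL5, which lengthens these chains, had 99.2 and 96.3 CPM in resistant cells and 135 and 127 CPM in controls (log2 -0.42 ± 0.16, edgeR adjusted p = 0.296). Leaving out each library in turn gave log2 fold changes from -0.46 to -0.38 for ELOVL5, from -0.71 to -0.31 for FADS1 and from -0.94 to -0.35 for FADS2. ELOVL6, which lengthens saturated chains, lay between the controls, with 28.4 and 29.5 CPM in resistant cells and 34.8 and 27.6 CPM in controls (log2 -0.11 ± 0.19).

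Per kilobase of counted length, SCD, FASN and ACLY had the highest levels among the members. SCD stood at 75.6 CPM per kilobase in resistant cells and 140.3 in controls, FASN at 67.0 in resistant cells and 82.2 in controls, and ACLY at 51.2 in resistant cells and 63.9 in controls. In the sterol arm the highest levels in resistant cells were PMVK at 22.6 and FDFT1 at 15.4 CPM per kilobase, which compare with 22.4 and 22.9 in controls. HSD17B7 at 1.37 and MVK at 1.38 in resistant cells were the lowest members, against 1.83 and 2.16 in controls.

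In each library, list positions were also summarised as the median over a list's genes of log2 CPM minus the gene's own mean over the 4 libraries. The sterol arm stood at -0.23 and -0.17 in resistant replicates 1 and 2, and at 0.60 and -0.08 in control replicates 1 and 2. The fatty acid arm stood at -0.19 and -0.03 in the resistant libraries, and at 0.31 and 0.00 in the controls. Both arms were thus highest in control replicate 1, and the other 3 libraries lay close together.

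Genes of the G2 and M phases, a measure of proliferation, were highest in the same library. Their medians were -0.82 and -0.28 in resistant replicates 1 and 2, and 0.90 and 0.14 in control replicates 1 and 2. The summed level of 20 such genes was 736 and 1089.9 CPM in the resistant libraries and 2629 and 1487 CPM in the controls. Each of the 20 was below both controls in both resistant libraries (22.2% of all tested genes, 24.5% of those averaging at least 5 CPM). The 20 include a gene at only 0.422 to 0.755 CPM. In another, resistant replicate 2 at 128 CPM was just under control replicate 2 at 131 CPM. MKI67, the proliferation marker, had 88.3 and 107 CPM in resistant cells and 277 and 171 CPM in controls, and TOP2A had 80.9 and 103 CPM in resistant cells and 282 and 166 CPM in controls. The part of proliferation in the values of the synthesis genes was not tested.

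**Figure D3:**
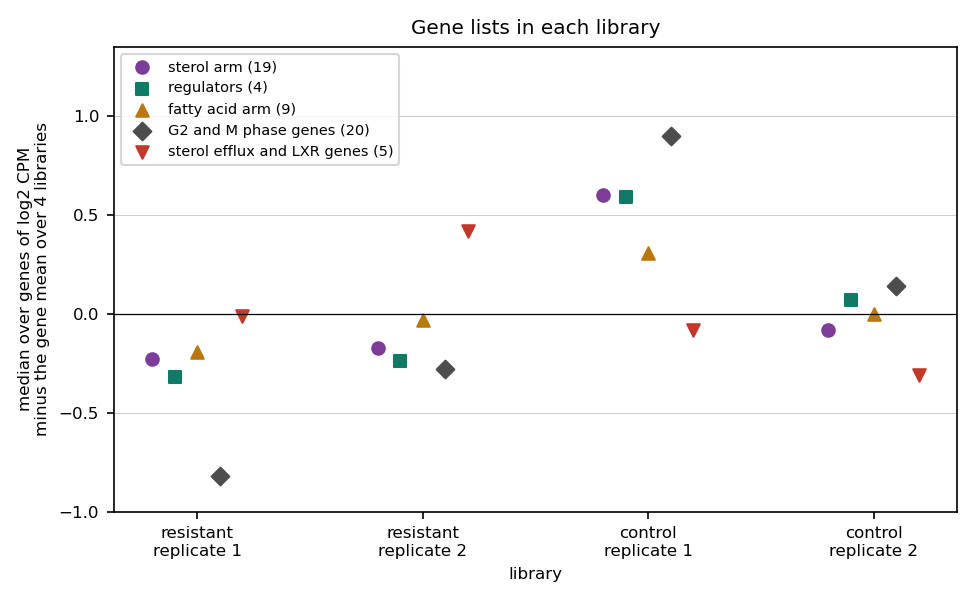
Median over the genes of a list of log2 CPM minus each gene's mean over the 4 libraries, for 5 lists in each library. The sterol arm, the regulators, the fatty acid arm and the G2 and M phase genes are all highest in control replicate 1, and the efflux and LXR genes are highest in resistant replicate 2.

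Other genes of the same pathways were read beside the members. The background for each of these lists is the share over all tested genes. At an unadjusted edgeR p under 0.05, 7.32% were lower and 6.14% higher, and 49.5% had a negative fold change. DESeq2 called 2.69% lower and 2.51% higher. Of 11 sterol genes outside the 32, edgeR called 0 in either direction, 1 was lower and 0 higher at an unadjusted p under 0.05, and 8 were negative (log2 median -0.10). DESeq2 called 1 lower, LBR, and 0 higher. LBR, a nuclear envelope protein that is also a sterol reductase, had 44.0 and 47.6 CPM in resistant cells and 108 and 74.0 CPM in controls (log2 -0.99 ± 0.21, edgeR adjusted p = 0.0807, DESeq2 adjusted p = 0.0033). Both resistant libraries lay below both controls. IDI2, a paralog of IDI1, stayed under 1 CPM in each library, with 0.309 and 0.702 CPM in resistant cells and 0.252 and 0.231 CPM in controls (log2 1.07 ± 0.59, edgeR adjusted p = 0.499). Counting ignored strand, so its level beside the antisense gene IDI2-AS1 is uncertain. The remaining sterol genes were nearer 0, among them the SREBP proteases MBTPS1 at -0.10 and MBTPS2 at 0.22.

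For 5 genes linked to sterol export or to the LXR receptors, 4 fold changes were positive and 1 was negative (log2 median 0.39). None was called by edgeR in either direction, 2 were higher and 1 lower at an unadjusted p under 0.05, and DESeq2 called 1 higher and 0 lower. That gene was ABCG1, a sterol exporter driven by LXR, with 14.5 and 29.1 CPM in resistant cells and 6.51 and 10.1 CPM in controls (log2 1.40 ± 0.36, edgeR adjusted p = 0.13, DESeq2 adjusted p = 0.00153). Both resistant libraries were above both controls, but resistant replicate 2 held about 2 times as much as resistant replicate 1. NR1H3, which encodes the receptor LXR alpha, had 12.7 and 17.5 CPM in resistant cells and 37.2 and 19.5 CPM in controls, the opposite direction (log2 -0.91 ± 0.32, edgeR adjusted p = 0.266).

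Among 21 tested fatty acid genes outside the members, 0 were called by edgeR, 2 were lower and 2 higher at an unadjusted p under 0.05, and DESeq2 called 1 higher and 0 lower. The median log2 fold change was -0.16. ELOVL7, an elongase of long saturated chains, had 9.40 and 7.63 CPM in resistant cells and 3.60 and 3.87 CPM in controls (log2 1.19 ± 0.25, edgeR adjusted p = 0.0789), with both resistant libraries well above both controls. ACSL4, which activates polyunsaturated fatty acids, had 46.8 and 51.7 CPM in resistant cells and 72.2 and 61.8 CPM in controls (log2 -0.44 ± 0.17, edgeR adjusted p = 0.307).

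**Figure D4:**
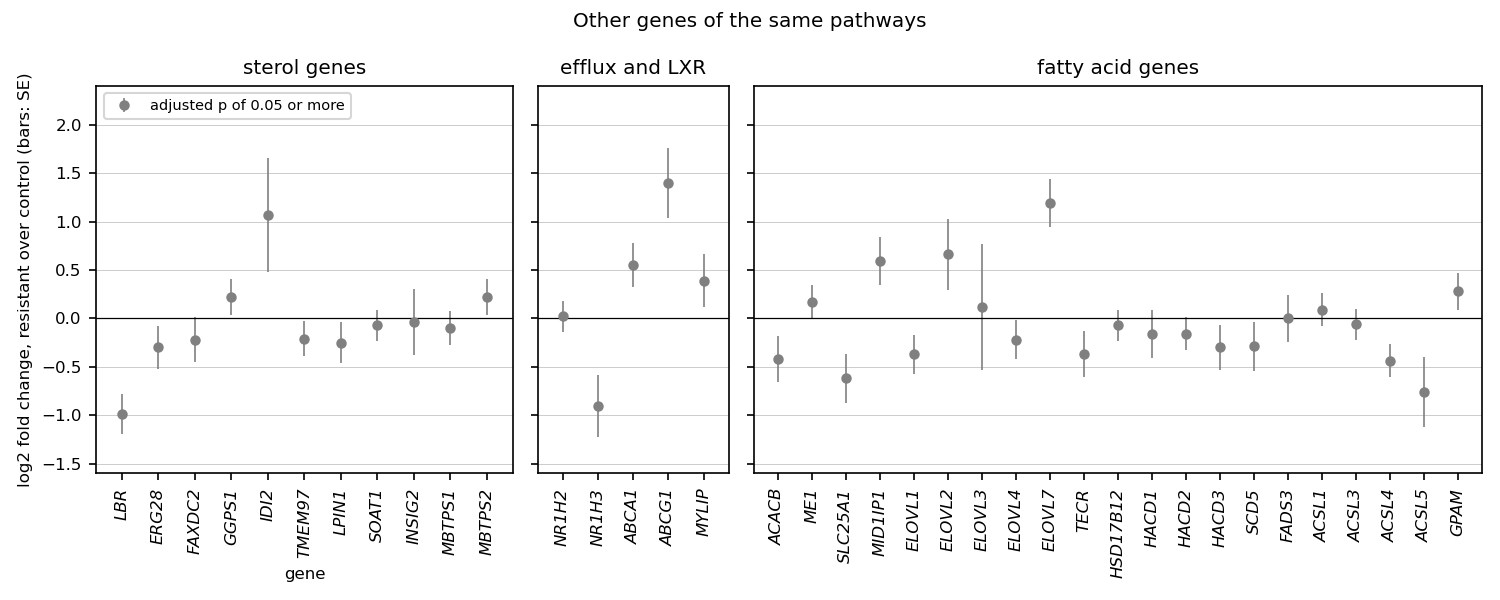
Log2 fold change, resistant over control, with SE bars from the edgeR fit, for the other sterol genes, the efflux and LXR genes and the other fatty acid genes. None of these genes passed an adjusted p of 0.05, and ABCG1 and ELOVL7 have the highest fold changes.

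Location set 2 of the regulators apart. INSIG1 (ENSG00000186480.13, chromosome 7, 155297776 to 155310235 on GRCh38) lies in a stretch where coding genes within 5 Mb had a median log2 fold change of 0.87 (46 genes), while INSIG1 itself was at -0.66. SCAP (ENSG00000114650.21, chromosome 3, 47413681 to 47477126) lies in a stretch with a median of -0.64 (154 genes), close to its own -0.59. Elsewhere the surroundings of the members had medians between -0.18 and 0.26. SREBF2 and ACAT2, with medians of 0.00 and 0.02 around them, had log2 fold changes of -0.92 and -1.23.

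**Figure D5:**
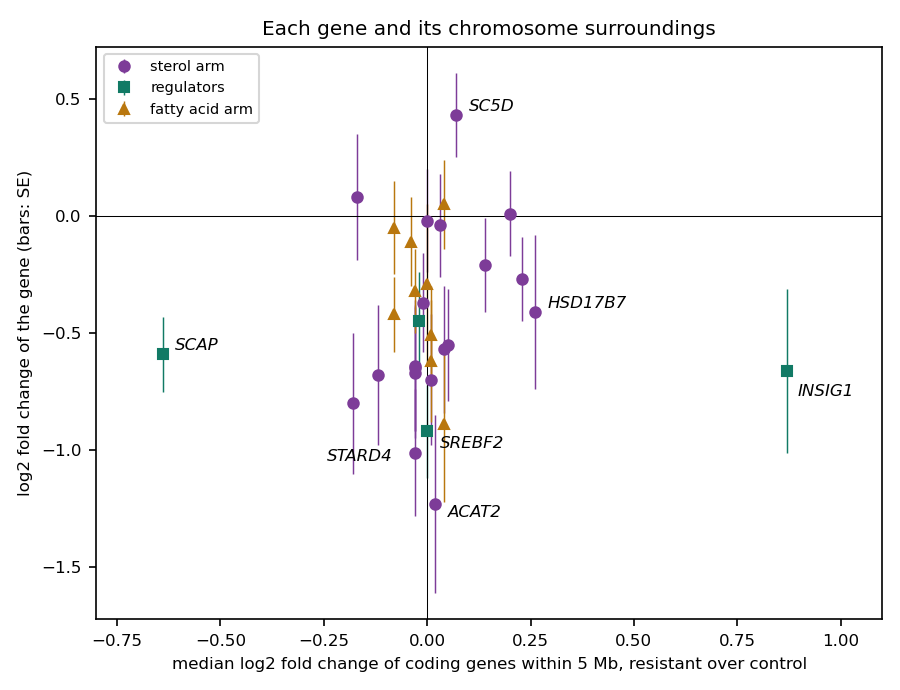
Log2 fold change of each of the 32 genes with SE bars, against the median log2 fold change of tested protein-coding genes within 5 Mb of it. SCAP lies beside genes with a median of -0.64 and INSIG1 beside genes with a median of 0.87, while the other 30 have surroundings near 0.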

How the data were processed

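Each deposited file holds the raw counts of 1 library over genes. Per the file headers, featureCounts 2.0.0 counted duplicate-marked alignments over GENCODE release 42 with no further option set. By that program's defaults strand is ignored, both mates of a pair count singly, and reads shared by genes or mapping to several places are dropped. STAR, DESeq2 and GRCh38 are named in the submitters' processing notes. PolyA selection and strand-specific, paired-end libraries are given in the labels' protocols. The names of the resistant files carry other sample numbers than the labels, and each was assigned by its GEO record. A deposited fold change table that names no comparison was not used.

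Gene identifiers were matched to symbols without their version (62625 of 62649), and gene types came from GENCODE release 29. Genes were filtered with edgeR's filterByExpr, scaled with TMM and tested with the quasi-likelihood F test, two-sided, with group as the sole term, over all 4 libraries and with Benjamini-Hochberg adjustment over all tested genes (R 4.3.3, edgeR 4.0.16, limma 3.58.1). The biological coefficient of variation was 25.5%, with 2 residual and 5.69 prior degrees of freedom. The SE of a log2 fold change is its size over the root of F. A count of 3 corresponds to 0.0346 to 0.0422 CPM, covering counting error only. DESeq2 1.42.0, other size factors, no filter, a replicate block, halved counts for control replicate 1 and leaving out each library were the alternatives. The edgeR step was run on simulated counts with a common dispersion, as a check of the code. That check was not used to judge whether changes as small as those of the members could be called. Genes whose symbols mark them as copies of FDPS, IDI1, CYP51A1, HSD17B7 and SCD held at most 4.1% of the counts of their parent gene. They were picked by symbol alone. Reads mapping to several places were dropped, so this share does not show how many reads of the parent genes were lost.

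The members, lists and tests were chosen with earlier results of these data known, so no list was tested or adjusted by itself. Named genes are all 32 members, and of the other pathway lists those past the threshold and otherwise the 2 with the smallest unadjusted p. MBTPS1 and MBTPS2 were also named after their values were seen. 1 gene of the pathway lists is not reported here, and list counts leave it out. SOX10, ERBB3, MITF, S100B, PMEL, MLANA, TYR and DCT serve as lineage markers.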

Additional observations from a re-analysis of the deposited data

How the results depend on the processing

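The replicate numbers are shared by both groups, but nothing says that they pair libraries, and libraries with the same number did not deviate together (r = -0.09 across 15573 genes). With the replicate block, 31 genes were called lower and 33 higher over all genes (128 and 144 without it), no member and no other pathway gene passed in either direction, and at an unadjusted p under 0.05 there were 8 members lower and 0 higher (12 and 1 without it). DESeq2 called 636 genes lower and 593 higher, 3 members and 1 other pathway gene lower, 2 other pathway genes higher, and had 16 members lower and 0 higher at an unadjusted p under 0.05. Without the filter on low counts edgeR called 961 lower and 905 higher, 6 members lower (DHCR7, MSMO1, ACAT2, STARD4, SREBF2 and SCD), 2 other pathway genes lower and 2 higher. The share of all genes called was not taken in that fit, so its counts of members and other pathway genes have no background. The cause of these differences between settings was not tested. Shares of all tested genes at an unadjusted p under 0.05, or with a negative fold change, were taken in the main fit only. Member counts at that p or of that sign in the other settings, also with 1 library left out, therefore have no background.

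With 1 library left out, the calls over all genes ranged from 9 to 1020 lower and from 7 to 1146 higher, the lowest without resistant replicate 2 and the highest without control replicate 2. The members called lower ranged from 0 to 15, the members at an unadjusted p under 0.05 from 3 to 22 lower and from 0 to 1 higher, and the other pathway genes called from 0 to 3 lower and from 0 to 2 higher. The median log2 fold change ranged from -0.85 to -0.13 for the sterol arm, from -0.46 to -0.16 for the fatty acid arm and from -0.91 to -0.37 for the regulators, the weaker end without control replicate 1 in each. The sign of 10 members turned with a library left out: FASN (-0.76 to 0.40), INSIG1 (-1.14 to 0.07), NSDHL (-0.26 to 0.21), HSD17B7 (-0.74 to 0.02), ELOVL6 (-0.26 to 0.07), ACSS2 (-0.31 to 0.18), ACACA (-0.13 to 0.26), CYP51A1 (-0.20 to 0.32), TM7SF2 (-0.12 to 0.09) and PMVK (0 to 0.03). No sign turned with the other size factors, without the filter, with DESeq2, with the block or with halved counts. Where 1 library is left out of a group, the lone sample is assumed to vary like the other group. The median log2 ratio between the controls over the members, 0.47, was about as large in size as their median log2 fold change of -0.48.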
